A study of Canis lupus familiaris with 222 samples.

Results

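Mixed tumors of the canine mammary gland were compared with the carcinomas that had been diagnosed inside such tumors. Members were chosen by histology alone, as listed in the study's clinical table, and no expression value entered the choice. The table lists 15 carcinomas in benign mixed tumors and 8 benign mixed tumors, so 23 of the 158 tumors of the series were compared, each from a different dog. A benign mixed tumor is built from glandular epithelium, myoepithelial cells and mesenchymal tissue such as cartilage or bone. A carcinoma can arise from its epithelium while cartilage or bone of the original growth remains beside it. The study graded only the epithelial component, and counted the line between a benign mixed tumor and a grade 1 carcinoma within one among the difficult diagnoses. Bulk RNA is drawn from all of these components, so fewer cells of a type and less RNA per cell cannot be told apart here.

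All dogs were female, and all tumors were spontaneous and removed at surgery. The carcinomas came from dogs of 5 to 16 years and the benign tumors from dogs of 7 to 13 years. Of the carcinomas, 13 were grade 1 and 2 were grade 2, and 7 of the 15 dogs were neutered, against 1 of the 8 dogs with a benign tumor. A matched adjacent normal mammary tissue was sequenced for 7 dogs of the carcinoma group and 2 of the benign group. RNA-seq values were deposited as FPKM, which divides fragment numbers by gene length and library size, for 24580 Ensembl gene identifiers. The carcinoma libraries held 64888308 to 119219828 mapped reads and the benign libraries 52007828 to 81375581. Read numbers per gene are unknown. The identifiers carry no gene names in the tables used here. The tumor label could therefore not be checked against cartilage, bone, myoepithelial or luminal markers, and genes are given by identifier only.

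In 2 dogs, CMT-051 and CMT-257, the sample labels call the tumor benign and the clinical table lists a grade 1 carcinoma. The clinical table was followed. Values under the sample labels (13 carcinomas and 10 benign tumors) are given for gene counts, the genes described by value and some measures. CMT-257 is also the youngest dog and has the deepest library of the 23, at 119219828 mapped reads, and the fewest genes at an FPKM of at least 1, at 11222. Another pair of tumors stood apart in expression. The carcinoma CMT-756 and the benign tumor CMT-695 had the lowest median correlations with the other mixed tumors, 0.786 and 0.804, and lay farthest out on the first principal component, at 112 and 86.2.

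No gene separated the carcinomas from the benign tumors after correction. Of 14386 genes that averaged 0.5 FPKM or more over the 23 tumors, 0 (0% of those tested) reached an adjusted p under 0.05 with a log2 difference of at least 1 in limma with Benjamini-Hochberg adjustment, and 0 reached that p at any size of difference. The smallest adjusted p was 0.344. At an unadjusted p under 0.05 there were 715 genes (4.97% of those tested), of which 235 were higher in the carcinomas (1.63%) and 480 lower (3.34%). Such a threshold gives close to that share when no gene differs. The Wilcoxon rank-sum test also called 0 genes and gave 745 of the 14386 at an unadjusted p under 0.05. In 0 genes did all carcinomas lie above, or all below, the 8 benign tumors.

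The direction of these uncorrected differences, given as a description, changed with the placement of the 2 disputed tumors. Under the clinical listing, 67.1% of the 715 genes were lower in the carcinomas. With the sample labels there were 457 such genes of 14386 tested, 316 higher and 141 lower. With both tumors left out there were 621 of 14390, 279 higher and 342 lower. The plot of gene numbers by setting shows genes higher in carcinoma outnumbering those lower under the sample labels and when each tumor is taken relative to the dog's own normal tissue, and the reverse in the other settings drawn. None of these 3 placements gave a call.

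**Figure D1:**
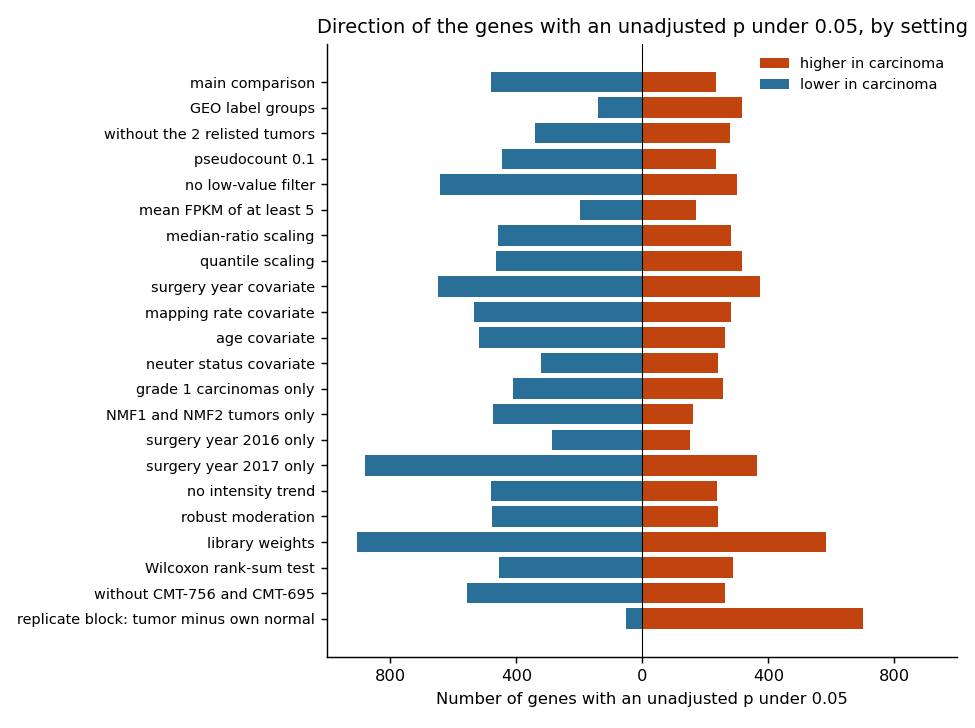
Number of genes with an unadjusted p under 0.05, higher (right, red) or lower (left, blue) in carcinomas in benign mixed tumors than in benign mixed tumors, for the main comparison and each alternative setting. The main comparison has 235 higher and 480 lower, and placement by the sample labels has 316 higher and 141 lower. The bar named replicate block compares tumor minus own normal tissue in 9 dogs.

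The missing calls came with intervals of moderate width. The 95% confidence interval of the log2 difference, measured on log2(FPKM + 1), had a median half-width of 0.48 and lay wholly between -1 and 1 for 11065 genes (76.9% of those tested). Among the 9213 genes that averaged 5 FPKM or more in a group, this held for 6789 (73.7%). For the remaining genes a difference of that size, in FPKM + 1, lay within the interval, and a missing call does not show that the groups were alike. Group membership accounted for a median of 2.84% of a gene's variance, and for at most 53.9%. The median standard deviation between tumors was 0.55 on the log2 scale among the carcinomas and 0.49 among the benign tumors.

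**Figure D2:**
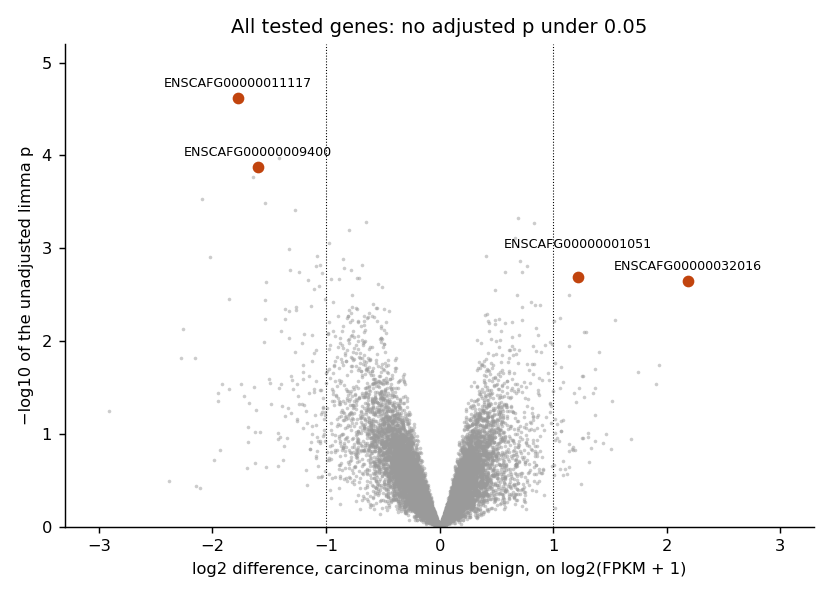
Each point is 1 of the 14386 tested genes, with the log2 difference of carcinomas minus benign tumors on log2(FPKM + 1) across and −log10 of the unadjusted limma p upward. The 4 genes described by value are marked in red, the dotted lines stand at differences of -1 and 1, and the smallest adjusted p was 0.344.

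A difference of at least 1 on the log2 scale, without a test, was seen in 203 genes (1.41% of those tested), 66 higher and 137 lower in the carcinomas. Leaving out single tumors took many of these genes below that limit, by which they had been chosen. A gene close to the limit needs only a small shift for this. Only 66 of the 203 kept a difference of at least 1 when each of the 23 tumors was left out in turn, 25 of them higher and 41 lower in the carcinomas. Leaving out the benign tumor CMT-102 brought 62 of the 203 below that size, and leaving out the benign tumor CMT-695 brought 50 below it. Every tumor left out brought some below it, the fewest being 10, for the carcinomas CMT-188 and CMT-634. A benign tumor weighs more in its smaller group than a carcinoma does in its own. CMT-102 and CMT-695 held the highest value of the 23 for 32 and 30 of the 203 genes, most of which were chosen as higher in the benign tumors. How often these tumors are highest over all tested genes was not counted.

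The whole profiles of carcinomas and benign tumors overlapped. The first 3 principal components held 17.5%, 16.1% and 11.5% of the variance, and carcinomas and benign tumors overlapped on each. The median correlation across 14584 genes was 0.879 between 2 carcinomas, 0.883 between 2 benign tumors and 0.878 between a carcinoma and a benign tumor. The mixed tumor most like each carcinoma was another carcinoma in 13 of 15 cases, and that of each benign tumor was benign in 4 of 8. Together it was of the same class for 17 of the 23, which was not tested against the unequal group sizes.

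**Figure D3:**
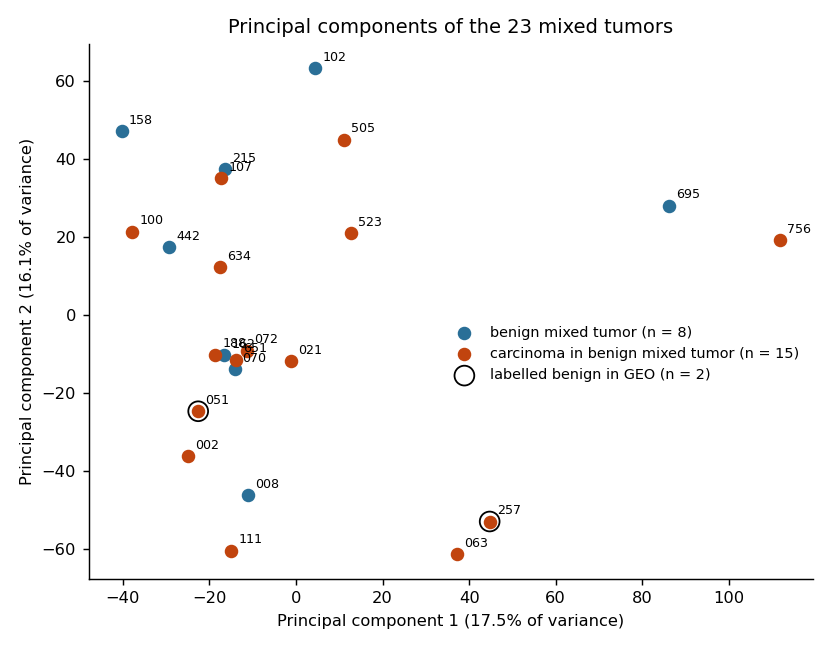
Principal components 1 and 2 (17.5% and 16.1% of the variance) of log2(FPKM + 1) over the tested genes, with 1 point per tumor and its dog number beside it. Carcinomas (red) and benign mixed tumors (blue) overlap, CMT-756 and CMT-695 lie far to the right, and rings mark the 2 tumors that the sample labels call benign.

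Among all tumors with a listed histology, the closest profile belonged to another mixed tumor for 4 of the 23 (17.4%), while mixed tumors made up 22 of the 156 other tumors (14.1%). For the 8 benign mixed tumors it was a complex adenoma in 2 cases, a complex carcinoma in 2, a simple carcinoma in 2 and a tumor of another histology in 2. For the 15 carcinomas it was a further carcinoma in a benign mixed tumor in 3 cases, a benign mixed tumor in 1, a complex tumor in 4 (2 adenomas and 2 carcinomas) and a simple tumor in 7 (3 adenomas and 4 carcinomas). Complex tumors combine epithelial and myoepithelial growth without the cartilage or bone, and simple tumors are built from 1 epithelial cell type. Of the benign tumors, CMT-102 was closest to the carcinosarcoma CMT-231 and CMT-695 to the osteosarcoma CMT-290, the 2 cases of another histology. These are descriptions over genes, which are not independent replicates. Permutation tests of 12 such summary measures, among them the 3 components and the mean profiles of the other tissues, gave unadjusted p from 0.135 to 0.993 and adjusted p of at least 0.957. These measures were added after the first results had been seen.

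Under the clinical listing, no difference between the groups in 7 clinical and technical measures passed its test. Age averaged 11.3 ± 3.56 years (SD, n = 15) in the carcinoma group and 10.1 ± 2.53 years (SD, n = 8) in the benign group, with an exact permutation p of 0.44. The Allred score of the estrogen receptor, a sum of staining intensity and stained share, averaged 5.93 ± 2.20 (n = 14) and 5.62 ± 2.33 (n = 8), with an exact permutation p of 0.821. Mapped reads, mapping rate, median FPKM, genes detected and the share of the 50 most abundant genes gave exact permutation p from 0.157 to 0.833, and the adjusted p over the 7 measures ran from 0.697 to 0.833. The placement of the 2 disputed tumors mattered here too. Under the sample labels the age difference rose from 1.21 to 2.85 years, with an exact permutation p of 0.0403 before adjustment, and the differences in mapped reads, median FPKM and genes detected changed sign, with exact permutation p from 0.766 to 0.957.

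In the study's expression clusters, NMF1 to NMF5, which were built from these same expression values, 13 of the 15 carcinomas were in NMF1 (8) or NMF2 (5) and the other 2 in NMF4. Of the benign tumors, 5 of 8 were in NMF1 (3) or NMF2 (2), while 2 were in NMF3 and 1 in NMF5. The share outside NMF1 and NMF2, 13.3% against 37.5%, had an exact Fisher p of 0.297. The basal class held 1 of 15 carcinomas and 2 of 8 benign tumors, with an exact Fisher p of 0.269. Neutered dogs made up 46.7% and 12.5%, with an exact Fisher p of 0.176, and operations in 2016 made up 53.3% and 37.5%, with an exact Fisher p of 0.667. Over these 4 tables the adjusted p ran from 0.396 to 0.667.

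The genes described next are the 2 in each direction with the smallest unadjusted p among those with a log2 difference of at least 1 and an average of 5 FPKM or more on the higher side. None passed the test. They lead by p and not by size, and their values are given as a description.

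ENSCAFG00000011117 had the smallest p of all 14386 genes and was lower in the carcinomas. Its FPKM was 4.29 in the lowest carcinoma, 9.14 at the median and 31.5 in the highest, against 17.1, 29.1 and 130 in the benign tumors. All carcinomas but CMT-634 (31.5 FPKM) and CMT-063 (19.0 FPKM) lay below the lowest benign tumor. The means were 11.2 ± 6.90 FPKM (SD, n = 15) and 46.1 ± 38.6 FPKM (SD, n = 8), the log2 difference was -1.77 with a standard error of 0.34, and limma gave an adjusted p of 0.344.

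ENSCAFG00000009400 was also lower in the carcinomas. Its FPKM was 3.04, 17.6 and 37.5 in the lowest, median and highest carcinoma, against 25.8, 44.1 and 87.5 in the benign tumors. Every carcinoma lay below the benign median, and CMT-188 and CMT-634 lay inside the benign range. The log2 difference was -1.60 with a standard error of 0.35, and limma gave an adjusted p of 0.618.

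ENSCAFG00000001051 was higher in the carcinomas and nearly even among the benign tumors. The 8 benign tumors lay between 1.52 and 3.91 FPKM with a median of 2.43, and the carcinomas between 0.812 and 24.1 with a median of 7.77. Of the 15 carcinomas, 13 exceeded all benign tumors, and the exceptions were CMT-756 (0.812 FPKM) and CMT-505 (2.40 FPKM). The means were 9.06 ± 6.94 FPKM (SD, n = 15) and 2.55 ± 0.705 FPKM (SD, n = 8), the log2 difference was 1.22 with a standard error of 0.35, and limma gave an adjusted p of 0.853.

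ENSCAFG00000032016 had the largest difference of the 4 and the widest spread. Its FPKM was 3.48, 21.6 and 262 in the lowest, median and highest carcinoma, and the benign tumors ran from a value listed at 0 (CMT-102) through a median of 6.61 to 21.0. The groups overlapped over much of the benign range, although 14 of 15 carcinomas exceeded the benign median. The log2 difference was 2.19 with a standard error of 0.64, and limma gave an adjusted p of 0.853. The highest values were 262 FPKM in CMT-756 and 141 FPKM in CMT-021. Within operations of 2016 (8 carcinomas, 3 benign tumors) its log2 difference was 3.07, and within those of 2017 (6 and 4) it was 1.17 with an interval from -0.55 to 2.88.

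Within operations of 2016 and of 2017 the other 3 genes kept their direction, with log2 differences of -1.55 and -1.54 for ENSCAFG00000011117, -1.52 and -1.03 for ENSCAFG00000009400, and 1.51 and 1.05 for ENSCAFG00000001051. The genes were picked for their difference in these same tumors, so the kept direction is no replication across years. Some tumors held extreme values of more than 1 of the 4 genes. CMT-021 had the highest FPKM of ENSCAFG00000001051 (24.1), the lowest of ENSCAFG00000009400 (3.04), and the second highest of ENSCAFG00000032016 and the second lowest of ENSCAFG00000011117 among the carcinomas. CMT-756 had the highest value of ENSCAFG00000032016 and the lowest of ENSCAFG00000001051. CMT-634 had the highest carcinoma value of ENSCAFG00000011117 and the second highest of ENSCAFG00000009400 (35.3 FPKM). The disputed tumor CMT-051 had 11.9 FPKM of ENSCAFG00000001051, 14.1 of ENSCAFG00000011117 and 5.45 of ENSCAFG00000009400, and CMT-257 had 4.56, 9.14 and 21.6 FPKM of the same genes. Under the sample labels the log2 differences were -1.49 for ENSCAFG00000011117, -1.15 for ENSCAFG00000009400 and 1.99 for ENSCAFG00000032016. That of ENSCAFG00000001051 was 0.95, below the limit of 1 used for naming. The genes were chosen with both counted as carcinomas and the benign range leaves both out, so these values do not bear on how the 2 tumors should be listed.

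The other tissues of the series place these levels. The median of ENSCAFG00000001051 was 2.57 FPKM in complex adenomas, 5.6 in complex carcinomas, 2.45 in simple adenomas, 1.96 in simple carcinomas and 1.59 in adjacent normal tissue, so the carcinoma median of 7.77 stood above all of them. The median of ENSCAFG00000011117 was 36.4 FPKM in complex adenomas, 14.5 in complex carcinomas, 25.2 in simple adenomas, 17.7 in simple carcinomas and 17.5 in normal tissue, all above the 9.14 of the carcinomas in mixed tumors. The median of ENSCAFG00000009400 ran from 30.5 to 48.1 FPKM over the complex and simple tumors and was 16.4 in normal tissue, close to the carcinoma median of 17.6. The median of ENSCAFG00000032016 ran from 9.82 to 16.7 FPKM in the complex and simple tumors and was 17.9 in normal tissue, so the benign mixed tumors, at 6.61, had the lowest median. The spread within each tissue was wide, and these orders were not tested.

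**Figure D4:**
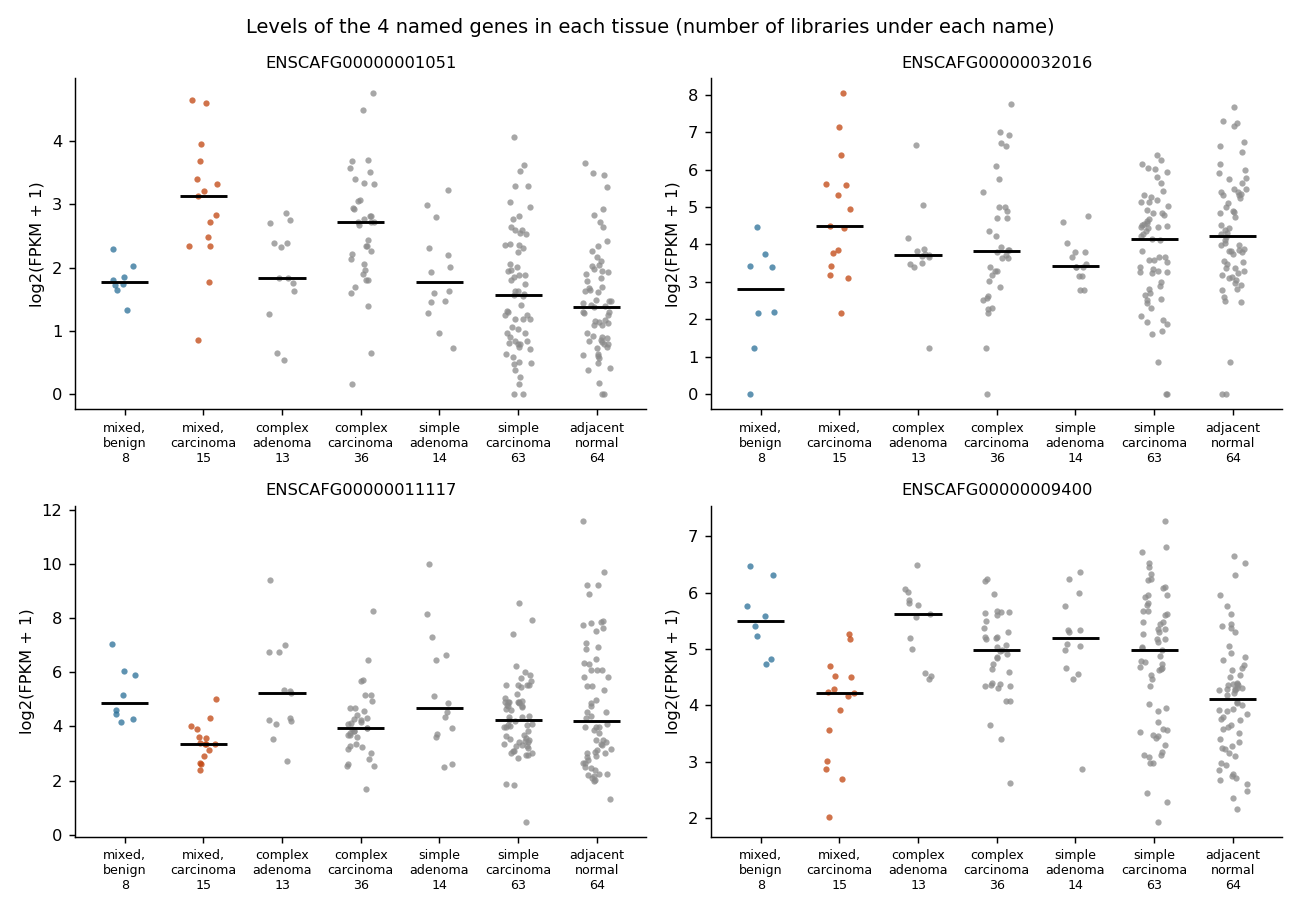
log2(FPKM + 1) of the 4 genes in benign mixed tumors (blue, 8), carcinomas in benign mixed tumors (red, 15), other tumors and adjacent normal tissue (grey), with 1 point per library, a bar at the median and the number of libraries under each name. ENSCAFG00000011117 and ENSCAFG00000009400 lie lower in the carcinomas than in the benign tumors, with overlap in every panel.

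Against the dog's own normal tissue the 4 genes differed in direction from dog to dog. ENSCAFG00000001051 was above the normal tissue in 6 of 7 carcinomas and in 2 of 2 benign tumors, with CMT-756 as the exception (0.812 against 2.1 FPKM). ENSCAFG00000032016 was above it in 3 of 7 carcinomas and 0 of 2 benign tumors, and ENSCAFG00000009400 in 4 of 7 and 1 of 2. ENSCAFG00000011117 was above it in 3 of 7 and 1 of 2. The normal tissues of those 7 dogs ran from 2.98 to 478 FPKM for that gene, and the carcinomas from 5.26 to 15.2 FPKM, and the widest gap was in CMT-107, with 478 FPKM in the normal tissue and 6.51 in the carcinoma. A limma fit of the tumor minus normal difference, with the dog as block and chosen after the values were seen, compared the 7 carcinoma dogs with the 2 benign dogs. It called 0 of 14536 genes (0%), with a smallest adjusted p of 0.462 and 752 genes (5.17%) at an unadjusted p under 0.05, of which 699 were higher and 53 lower in the carcinoma dogs. In that fit ENSCAFG00000009400 differed by 0.006 (95% interval -2.02 to 2.03), and the interval of each of the other 3 genes also held 0.

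The step from benign tumor to carcinoma was then set beside the same step in complex tumors (13 adenomas, 36 carcinomas) and simple tumors (14 and 63), which come from other dogs. In complex tumors 0 of 14507 genes were called by limma and 1625 (11.2%) had an unadjusted p under 0.05. In simple tumors 1 of 14527 genes was called, lower in the carcinomas (0.00688%), and 1632 (11.2%) had an unadjusted p under 0.05. The difference between the mixed and the complex step was called for 0 genes, with 1819 (12.5%) at an unadjusted p under 0.05 and a smallest adjusted p of 0.377. The difference between the mixed and the simple step was called for 0 genes, with 606 (4.17%) at an unadjusted p under 0.05 and a smallest adjusted p of 0.741. The groups of complex and simple tumors are larger, so the counts of the 3 steps are not on 1 scale.

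For the lower genes, the complex and simple steps pointed the same way as the mixed one. ENSCAFG00000011117 had a log2 difference of -1.20 (95% interval -1.98 to -0.42, adjusted p 0.442) in complex and -0.94 (-1.75 to -0.12, adjusted p 0.349) in simple tumors. ENSCAFG00000009400 had -0.56 (-1.06 to -0.07) and -0.36 (-1.01 to 0.28). Of the higher genes, ENSCAFG00000032016 also kept its direction, while ENSCAFG00000001051 did not in simple tumors. ENSCAFG00000001051 had 0.69 (0.13 to 1.25) in complex and -0.26 (-0.79 to 0.27) in simple tumors, and ENSCAFG00000032016 had 0.22 (-0.78 to 1.22) and 0.28 (-0.54 to 1.10). None of the 4 genes passed the test of a difference between steps, with limma adjusted p from 0.377 to 0.711 against complex and 0.999 against simple tumors. The largest of those differences, mixed minus complex, was 1.97 for ENSCAFG00000032016 (0.28 to 3.65). The genes were picked by their mixed step, which is part of each such difference, so these sizes are inflated by the choice.

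**Figure D5:**
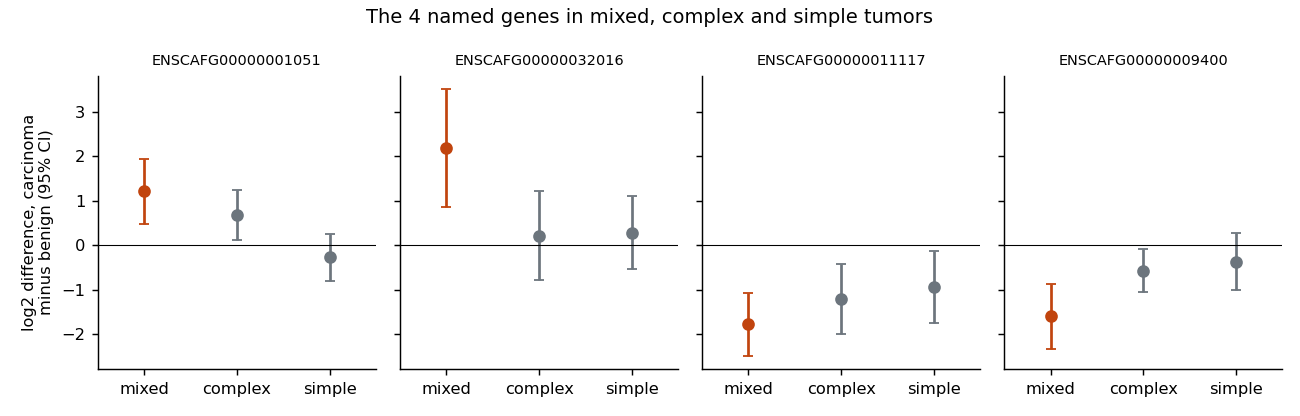
log2 difference of carcinoma minus benign tumor on log2(FPKM + 1), with its 95% confidence interval, for the 4 genes in mixed (red), complex and simple tumors (grey). ENSCAFG00000011117 and ENSCAFG00000009400 lie below 0 in all 3, and ENSCAFG00000032016 lies above 0 in all 3. ENSCAFG00000001051 lies above 0 in mixed and complex tumors and below 0 in simple tumors.

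Calls appeared under 1 alternative, in which the comparison was limited to the tumors of NMF1 and NMF2 (13 carcinomas, 5 benign). There 5 of 14158 genes were called, all lower in the carcinomas, and none is among the 4 genes above. Since the clusters were made from the same expression values, this choice of tumors is not independent of the readout. The largest difference was that of ENSCAFG00000016368, at 2.30 ± 2.46 FPKM (SD, n = 13) in the carcinomas and 20.4 ± 13.7 FPKM (SD, n = 5) in the benign tumors, a log2 difference of -2.85 with a limma adjusted p of 0.044. The next was ENSCAFG00000032545, at 0.860 ± 0.903 FPKM and 5.82 ± 2.58 FPKM, with a limma adjusted p of 0.024. Over the 5 calls the limma adjusted p ran from 0.00254 to 0.044. In each of the 5 called genes, picked for their difference in these same tumors, the highest of the 13 carcinomas lay below the lowest of the 5 benign tumors. How many of the 14158 genes did so was not counted. The 3 benign tumors outside NMF1 and NMF2 ran from 1.28 to 8.02 FPKM for ENSCAFG00000016368 and from 0.436 to 3.27 FPKM for ENSCAFG00000032545. Over all 23 tumors the log2 differences of ENSCAFG00000016368 and ENSCAFG00000032545 were -1.85 and -1.31, both with a limma adjusted p of 0.853. They are given after their values had been seen.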

How the data were processed

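RNA-seq of 158 tumors and 64 adjacent normal tissues of female dogs was used. Per the labels and the study's methods, poly(A) RNA was sequenced as a stranded library, and the authors aligned it to CanFam3.1 by TopHat2 2.0.9 and computed the deposited FPKM values with Cufflinks 2.1.1 on Ensembl genes. Histology, grade and cluster were taken from the clinical table and mapped reads from the sequencing table of the study. The members and lists were chosen with earlier results of these data known. Marker lists could not be applied, since the identifiers could not be matched to gene names.

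The limma package (3.58.1, R 4.3.3) was run with an intensity trend on log2(FPKM + 1), for genes averaging 0.5 FPKM or more in the libraries compared. A pseudocount of 1 understates differences of low genes. A gene was called at a Benjamini-Hochberg adjusted p under 0.05 with a log2 difference of 1 or more in size. The fit was tested on simulated data. Differences between steps were interaction contrasts. Single measures had exact permutation tests and shares had Fisher's exact tests, all two-sided (scipy 1.17.1). Named genes were the 2 per direction averaging 5 FPKM or more on the higher side and, since none was called, a log2 difference of at least 1, in order of unadjusted p. Each tumor is from another dog, and p-values measure the spread between dogs. Sequencing batches are not given in the sources used here, and surgery year and mapping rate stood in for them. Alternatives changed the grouping, filter, pseudocount, scaling, covariates, moderation and tumors entered.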

Additional observations from a re-analysis of the deposited data

Results flagged for a closer look

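In the 8 benign mixed tumors 15 measures were checked for a tumor far from the rest, and 1 was found. The first principal component of CMT-695 was 86.16, and the next benign tumor, CMT-102, was at 4.5. This gap was 0.646 of the range of the 8 benign tumors, against a limit of 0.526. Chance passes that limit in about 1 of 20 groups, and 15 measures were checked. CMT-695 also had the fewest mapped reads of the 23 tumors, 52007828, and its closest profile among all tumors belonged to the osteosarcoma CMT-290. Without CMT-695 and CMT-756, an alternative chosen after the values were seen, limma called 0 genes and 817 of 14324 had an unadjusted p under 0.05. The part of depth or tissue makeup in this position was not tested.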

How the results depend on the processing

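The count of 0 calls held in 43 of 44 alternatives, each of the 23 that left out 1 tumor included, and was 5 among NMF1 and NMF2 tumors. The 4 named genes stayed short of the threshold in all 176 of their alternatives and kept their direction in all but 1, the paired fit, in which ENSCAFG00000009400 turned to 0.006. They were picked for their difference in these tumors, which the alternatives reuse, so a kept direction is no independent support. ENSCAFG00000011117 ranged from -1.92 to -1.05, ENSCAFG00000009400 from -1.75 to 0.006, ENSCAFG00000001051 from 0.40 to 1.52 and ENSCAFG00000032016 from 1.17 to 3.07. The 715 of 14386 genes at an unadjusted p under 0.05 became 457 of 14386 under the sample labels. They became 370 of 8700 with a mean FPKM of at least 5, 438 of 14264 within 2016 and 1245 of 14156 within 2017. Library weights gave 1490 of 14386. Leaving out 1 tumor gave 453 of 14373 (without CMT-158) to 1366 of 14373 (without CMT-008). Median-ratio and quantile scaling moved the median difference of all genes from -0.04 to 0.015 and 0.012, and the share lower from 67.1% to 61.8% and 59.7%. Fewer genes or tumors entered some of these fits, and otherwise the cause was not tested. Under the sample labels the age difference became 2.85 years (exact permutation p 0.0403 before adjustment over measures), and the differences in mapped reads, median FPKM and genes detected turned to -0.263 M reads, 0.133 FPKM and 52.4 genes. Differences between steps gave 0 calls in all 10 alternatives. The 2 tumor groups hold different dogs, so they could be paired only through normal tissue. That paired fit, with the dog as replicate block over 9 dogs, gave 0 calls and 752 genes (5.17% of those tested) at an unadjusted p under 0.05. Its median interval half-width was 1.04 on the log2 scale. Its share of lower genes, 53 of 752, differs from that of the tumors alone, and the cause was not tested.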
